A study of Danio rerio with 2 samples.

Results

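The genes of the zebrafish cytosolic sulfotransferases were compared between a pool of whole-embryo RNA and a pool of adult liver RNA, each sequenced as 1 library. They were chosen by name, as all features beginning with sult1st, sult2st, sult3st or sult6b. This gave 13 of the 27098 features: 8 sult1st genes, 3 sult2st genes, 2 sult3st genes and 0 sult6b genes. Another 4 features have different names in the files and are cytosolic sulfotransferase genes in the RefSeq gene table, namely sult3st3, sult3st4, sult3st5 and sult5a1. They are described apart from the 13.

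Both sources came from fish exposed for 48 h to 9 human liver toxicants. These were acetaminophen, amiodarone, chlorpromazine, tetracycline, cyclosporine A, paraquat, thioacetamide, valproic acid and 17a-ethynylestradiol. RNA was isolated from adult livers and from samples of 15 whole embryos, and equal amounts per sample were then mixed by source. Every exposure is therefore mixed within each pool, and no unexposed library was analysed here. Neither strain, age nor sex was stated in the labels. The embryo pool holds RNA of all tissues, so its reads cannot be assigned to the embryonic liver, and in both pools fewer cells of a type and less RNA per cell cannot be told apart.

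Cytosolic sulfotransferases move a sulfonate group from the donor 3'-phosphoadenosine 5'-phosphosulfate (PAPS) to small molecules, which usually makes these more soluble. In vertebrates the SULT1 family acts mainly on phenols such as drugs, estrogens, catecholamines and thyroid hormones, and the SULT2 family on hydroxysteroids. A mouse SULT3 enzyme sulfonates amines, and the substrates of the zebrafish sult3st enzymes were not examined here. In the liver these enzymes belong to phase II drug metabolism, and acetaminophen and ethynylestradiol are known substrates of human SULT1 enzymes.

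The embryo library held 11408727 reads in genes and the liver library 13020149. Hepatocyte markers were all detected, 8 of 8 with at least 10 reads in each library, and they summed to 2939 CPM (the usual counts-per-million scale, relative to all reads in genes) in embryos and 73007 in liver. Of these, 7 were called higher in liver, and 1 was uncalled with a ratio below 1. Markers of neighbouring organs were also detected in liver. The 6 exocrine pancreas markers all had at least 10 reads there and summed to 1042 CPM, against 3429 in embryos. Of 5 intestine markers 4 did, with fabp6 at 0, and the sum was 853 CPM against 1475. The liver sum was mostly apoa4b.1, at 782 CPM, the 1 intestine marker with a ratio above 1, while the other four were called higher in embryos. Of 5 pronephros markers 4 did, with a sum of 61.2 CPM against 425. The part of these tissues in the sulfotransferase values was not tested.

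With 1 library per source there is no replicate check and no test between sources. Ratios are liver over embryo CPM, followed in brackets by an exact 95% interval that covers counting error only. A ratio was called where its whole interval reached 4-fold or more and the pool with the higher level held 10 reads or more. Scaling was by library totals. Scaling by TMM (trimmed mean of M-values) instead multiplied all ratios by 2.55, and median-of-ratios size factors by 2.61, which is a log2 shift toward liver of 1.35 and 1.38.

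All 13 genes were measured, meaning at least 10 reads in either pool, and 11 of them reached 10 reads in liver. The clearest differences were a liver excess of sult1st4 and an embryo excess of sult2st1 and sult1st1. One gene, sult1st4, was called higher in liver, and 3 were called higher in embryos, sult1st1, sult1st7 and sult2st1, which left 9 uncalled. These are 7.69% and 23.1% of the 13 genes, while among all 21750 measured genes 3.35% were called higher in liver and 30.9% in embryos. TMM scaling gave 3 liver calls (sult1st4, sult2st3 and sult3st1), or 23.1% beside 8.06% of all genes, and 0 embryo calls beside 15.8%. Size factors gave 4 liver calls, with sult1st6 added, or 30.8% beside 8.19%, and 0 embryo calls beside 15.5%. The median log2 ratio of the 13 was -0.36, or 0.99 under TMM scaling, beside -1.60 and -0.25 over all measured genes.

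Unique gene reads gave 1 liver call (8.33% of the measured members, beside 3.45% of all genes) and 2 embryo calls (16.7% beside 30.3%). Total exon reads gave 1 liver call (9.09% beside 3.38%) and 3 embryo calls (27.3% beside 36.4%), and unique exon reads 1 (9.09% beside 3.5%) and 2 (18.2% beside 34.6%). Library totals without the 10 most abundant genes of either pool gave 2 liver calls (15.4% beside 4.06%) and 3 embryo calls (23.1% beside 26.8%). A 2-fold threshold gave 3 (23.1% beside 6.46%) and 4 (30.8% beside 52.4%). In each of these settings the members' liver share was above that of all genes and their embryo share below it, by few genes each time, and the difference was not tested.

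**Figure D1:**
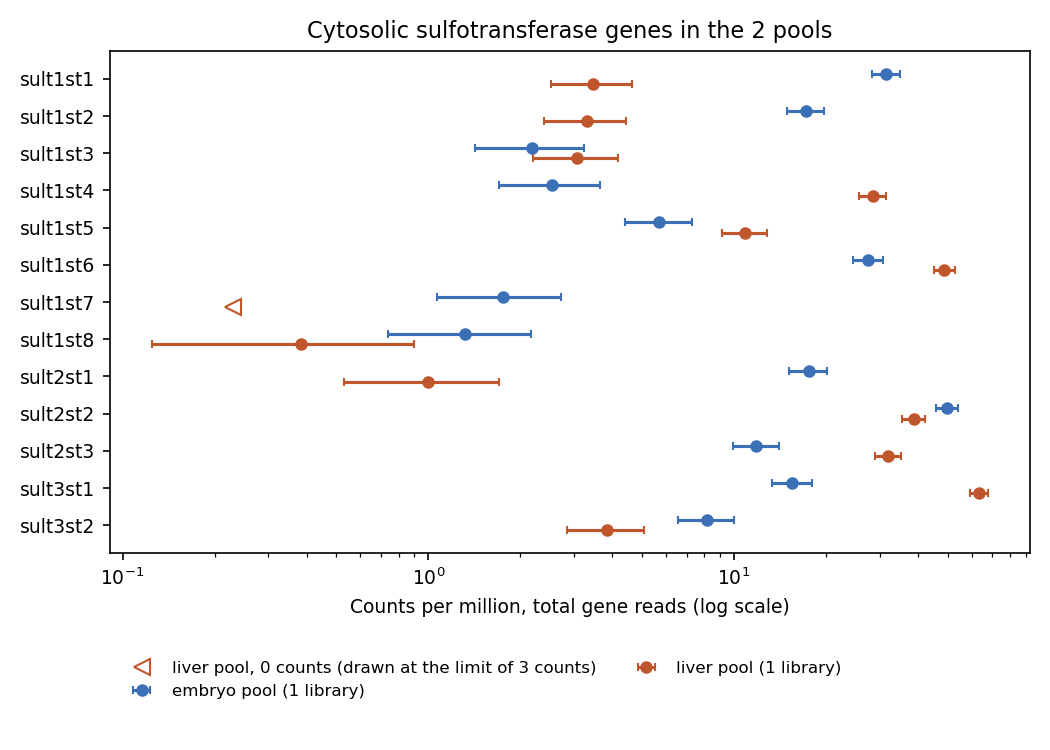
CPM of total gene reads (log axis) for the 13 genes, embryo pool in blue and liver pool in orange, 1 library each, with exact 95% binomial intervals. The open triangle marks sult1st7, with 0 liver reads, at the limit of 3 reads. sult1st4 and sult3st1 lie farther right in liver, and sult1st1, sult1st2 and sult2st1 farther right in embryos.

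Among the sult1st genes, the phenol sulfotransferase group, sult1st4 had the highest liver excess. It had 29 embryo reads (2.54 CPM) and 370 liver reads (28.4 CPM). The ratio was 11.2 (7.65 to 16.9). It was also called on unique gene reads, at 12.0, and on total exon reads, at 9.05. Under TMM scaling, which raises all ratios 2.55-fold so that no liver call can be lost, the ratio was 28.5. Of its reads 96.6% were unique in embryos and 97.3% in liver, so few were shared with other genes.

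Reads joining exons of sult1st4 were found in liver alone. None of its 24 embryo exon reads did so, which allows a share of up to 12.5% by the limit of 3 reads and 14.2% by the exact interval, whereas 51 of its 261 liver exon reads did (19.5%, 14.9 to 24.9). Reads across an intron-exon boundary numbered 8 of 29 in embryos and 9 of 370 in liver. Counted on exon-joining reads, a setting chosen after seeing the data, sult1st4 was 13.3-fold higher in liver with 3 reads in place of 0. By the exact interval it was at least 10.4-fold higher there.

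sult1st6, which the RefSeq table also names sult1c3, had 313 embryo reads (27.4 CPM) and 634 liver reads (48.7 CPM). The ratio of 1.77 (1.55 to 2.04) became 1.26 (1.08 to 1.47) on total exon reads. Outside annotated exons lay 226 of its liver reads (35.6%, 31.9 to 39.5) but 43 of its embryo reads (13.7%, 10.1 to 18.1). Over all genes these shares were 9.87% in liver and 14.4% in embryos, the opposite order. The source of the sult1st6 reads outside exons was not tested.

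sult1st5 had 65 embryo reads (5.70 CPM) and 141 liver reads (10.8 CPM), all unique, a ratio of 1.90 (1.41 to 2.59). The files annotate no exon for it, so all its reads lie outside exons and its RPKM is listed at 0. sult1st3 had 25 embryo reads and 40 liver reads, and its interval of 0.830 to 2.41 by library totals includes 1. Under TMM scaling its ratio was 3.58 (2.12 to 6.15) and that of sult1st5 was 4.85 (3.59 to 6.61), both uncalled. The region of sult1st3 is the shortest of the 13, at 876 bases. Of its reads, 68.0% in embryos and 67.5% in liver were unique.

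The remaining sult1st genes form a cluster in which all ratios were below 1, as were those of 82.6% of all measured genes. In the files sult1st2, sult1st1, sult1st8 and sult1st7 follow one another within 77.9 kb with no other feature between them. sult1st1 had 359 embryo reads (31.5 CPM) and 45 liver reads (3.46 CPM). It was 9.10-fold higher in embryos (6.67 to 12.7), with 99.2% and 97.8% unique reads. sult1st2 had 196 embryo reads (17.2 CPM) and 43 liver reads (3.30 CPM), 5.20-fold higher in embryos (3.72 to 7.42), so its interval crossed the 4-fold threshold.

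The other two cluster genes were scarce in both pools. sult1st7 had 20 embryo reads against 0 in liver, a difference of 7.61-fold with 3 reads in place of 0. By the exact interval it was at least 5.63-fold higher in embryos. Its call was lost on unique gene reads, of which it had 12. sult1st8 had 15 embryo reads against 5 in liver, a ratio of 0.292 (0.0830 to 0.845), and 40.0% of its reads were unique in both. Summed, the cluster had 590 embryo reads and 93 liver reads, a ratio of 0.138 (0.110 to 0.172). All 4 ratios and the sum stayed below 1 under TMM scaling, with the sum at 0.353, and under size factors. Both scalings multiply all ratios alike, and 55.9% and 55.3% of all measured genes lay below 1 under them. No gene of the cluster kept its call under either scaling. The sult1st8 interval included 1 under TMM scaling (0.212 to 2.16), under size factors (0.216 to 2.20) and on unique gene reads (0.0306 to 1.73). All 5 of its liver reads lay outside exons. sult1st4 lies on the same chromosome, 7.4 Mb beyond sult1st7, and sult1st3 3.83 Mb before sult1st2.

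**Figure D2:**
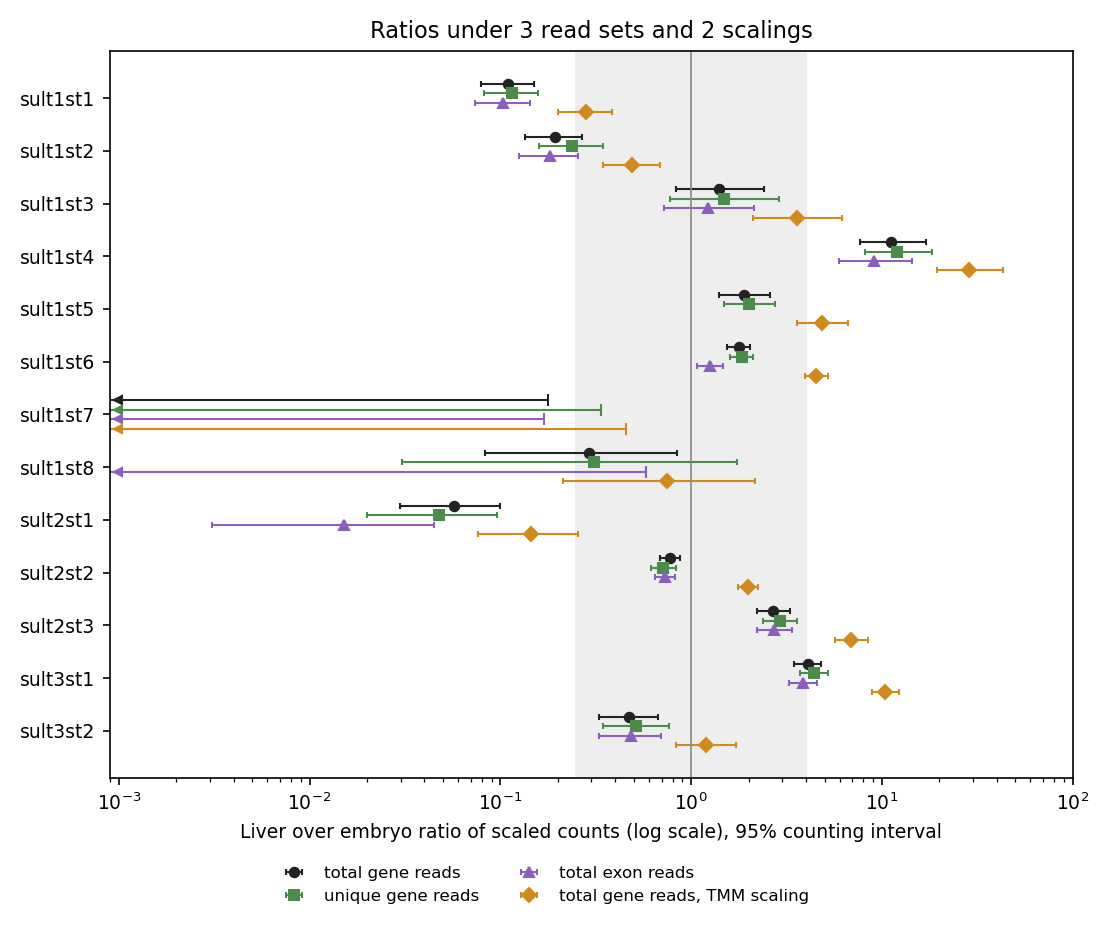
Liver over embryo ratio (log axis) of each gene with its 95% counting interval, for total gene reads (black), unique gene reads (green), total exon reads (purple) and total gene reads under TMM scaling (gold). Grey marks the range within 4-fold, and arrows mark a liver count of 0. sult1st4 lies beyond 4-fold in all 4, while sult2st2 and sult3st2 cross 1 under TMM scaling.

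Of the sult2st genes, the hydroxysteroid sulfotransferase group, sult2st1 had the largest embryo excess. It had 200 embryo reads (17.5 CPM) and 13 liver reads (0.998 CPM). It was 17.6-fold higher in embryos (10.04 to 33.6), or 6.88-fold (3.93 to 13.1) under TMM scaling, where it was not called. Of its 13 liver reads 10 lay outside exons (76.9%), against 17.5% in embryos. On total exon reads, 165 in embryos and 3 in liver, the embryo excess was 66.1-fold (22.2 to 324).

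Its neighbour sult2st2, 2.4 kb away with no feature between, had similar levels in both pools by library totals. It had 568 embryo reads (49.8 CPM) and 504 liver reads (38.7 CPM). The ratio of 0.778 (0.688 to 0.878) turned to 1.98 (1.76 to 2.24) under TMM scaling and 2.03 under size factors. Unique reads were 72.2% and 62.5% for sult2st2, and 78.5% and 61.5% for sult2st1. The files do not say which genes share the rest, so the split between them is uncertain. On unique gene reads the ratios were 0.715 (0.615 to 0.830) for sult2st2 and 0.0474 (0.0201 to 0.0957) for sult2st1, and these intervals do not overlap.

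sult2st3 went the other way, with 135 embryo reads (11.8 CPM) and 416 liver reads (32.0 CPM). Its ratio of 2.70 (2.22 to 3.30) was uncalled, and it was called under TMM scaling at 6.89 (5.66 to 8.43). Unique reads were 96.3% and 98.1%.

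In the sult3st group, sult3st1 had 177 embryo reads (15.5 CPM) and 823 liver reads (63.2 CPM), the highest liver count of the 13 genes. Its ratio of 4.07 (3.46 to 4.82) spanned the 4-fold threshold, and under TMM scaling it was called at 10.4 (8.83 to 12.3). Unique reads were 98.3% and 99.8%. sult3st2 had 93 embryo reads (8.15 CPM) and 50 liver reads (3.84 CPM), a ratio of 0.471 (0.327 to 0.671) that turned to 1.20 (0.835 to 1.71) under TMM scaling and 1.23 under size factors.

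sult3st2 ends a run of 4 adjacent sult3st genes within 26.5 kb, the other three of which are named differently in the files. First in the run, sult3st3 (si:dkey-236e20.2) had 83 embryo reads and 203 liver reads, a ratio of 2.14 (1.65 to 2.80), called under TMM scaling at 5.47. Next, sult3st5 (si:dkey-236e20.3) had 24 embryo reads and 1 liver read. It was called 27.4-fold higher in embryos (4.47 to 1126). That call was lost under TMM scaling, under size factors and with totals without the 10 most abundant genes of either pool. It was also lost on unique gene reads, total exon reads and unique exon reads. Then sult3st4 (zgc:113317) had 18 embryo reads and 19 liver reads, a ratio of 0.925 (0.459 to 1.87) that turned to 2.36 under TMM scaling. Of these, 9 and 10 were unique. By library totals sult3st3 alone of the run lay above 1, and under TMM scaling sult3st5 alone lay below it, at 0.0932. Elsewhere, sult5a1 (zgc:153723) had 55 embryo reads and 19 liver reads, all unique, a ratio of 0.303 (0.170 to 0.518). Under TMM scaling the sult5a1 ratio was 0.773 (0.433 to 1.32), an interval that includes 1.

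Summed over the 13 genes, the family had 2195 embryo reads (192 CPM) and 3084 liver reads (237 CPM). The ratio was 1.23 (1.17 to 1.30), and 3.14 under TMM scaling. By library totals it was 1.06 (1.003 to 1.13) on total exon reads. On exon-joining reads, a setting chosen after seeing the data, it was 0.820 (0.716 to 0.940). Its direction by library totals thus depended on the read set, and these read sets were not combined with TMM scaling. The make-up of the sum, in which library scaling cancels, differed between the pools. In embryos sult2st2 took 25.9% of the family's reads (exact binomial interval 24.1 to 27.8), sult1st1 16.4% and sult1st6 14.3% (12.8 to 15.8). In liver sult3st1 took 26.7% (25.1 to 28.3), sult1st6 20.6% (19.1 to 22.0) and sult2st2 16.3% (15.1 to 17.7). The order of the last 2 depended on the read set. sult2st2 lay above sult1st6 by total exon reads (490 against 408) and below it by unique exon reads (308 against 408).

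Several genes held very different shares in the pools. sult1st1 took 1.46% in liver (1.07 to 1.95), sult2st1 took 9.11% in embryos and 0.422% in liver (0.225 to 0.720), and sult1st4 took 1.32% (0.887 to 1.89) and 12.0% (10.9 to 13.2). By group, sult1st genes took 46.6% in embryos and 41.4% in liver, sult2st genes 41.1% and 30.3%, and sult3st genes 12.3% and 28.3%. The intervals of each group's shares did not overlap between pools. Counting by exon changed the sult1st sum by library totals. It had 89.6 CPM in embryos and 98.2 CPM in liver by gene reads but a ratio of 0.757 (0.686 to 0.834) by total exon reads. Under TMM scaling the ratio by gene reads was 2.80 (2.57 to 3.04), and exon reads were not scaled that way.

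**Figure D3:**
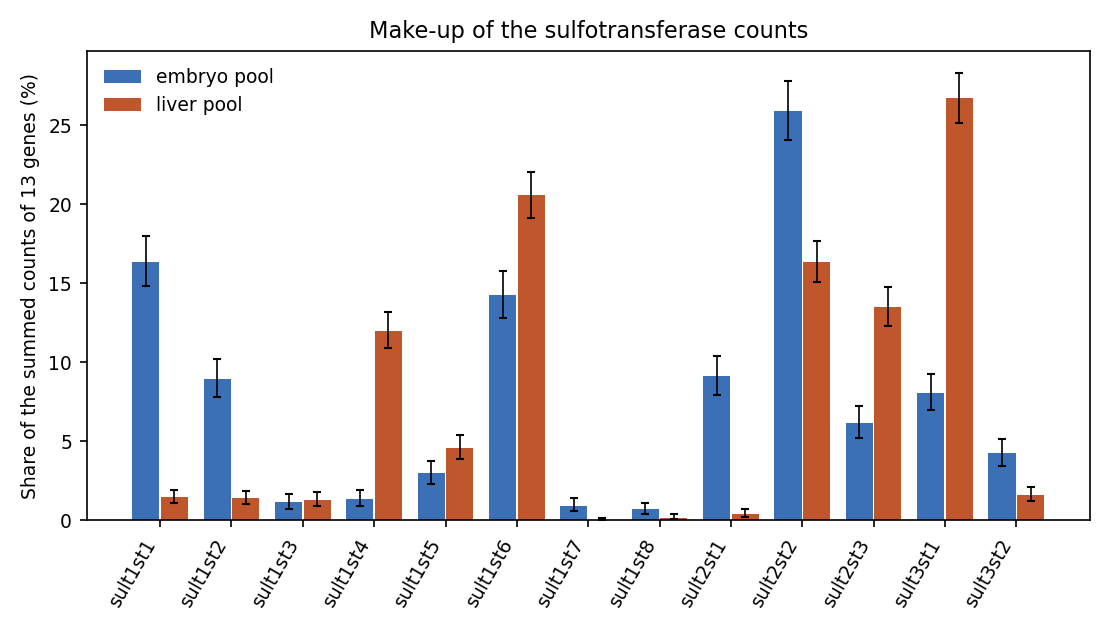
Share of the summed reads of the 13 genes taken by each gene (percent, axis from 0), embryo pool in blue and liver pool in orange, with exact 95% binomial intervals. sult2st2 leads in embryos at 25.9% and sult3st1 in liver at 26.7%.

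Levels of different genes were compared as deposited RPKM (exon reads per kilobase of exon, scaled to library size) for the 12 genes with annotated exons. sult2st2 had the highest RPKM in both pools, 56.7 in embryos and 43.6 in liver, the latter dependent on shared reads. In embryos it was followed by sult1st1 at 23.1, sult1st6 at 15.0, sult2st1 at 11.3, sult1st2 at 8.58 and sult3st1 at 8.47. Lower still were sult3st2 at 5.69, sult2st3 at 3.91, sult1st3 at 3.12, sult1st7 at 1.93, sult1st4 at 1.70 and sult1st8 at 0.700. Neighbours in this order differed beyond counting error except sult1st2 and sult3st1, and each pair from sult2st3 down to sult1st4.

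In liver the RPKM order after sult2st2 was sult3st1 at 34.2, sult1st6 at 19.9, sult1st4 at 16.2 and sult2st3 at 11.2. Each of these differed from its neighbours beyond counting error. sult1st3 at 4.05, sult3st2 at 2.88, sult1st1 at 2.52 and sult1st2 at 1.63 followed, with no neighbours among them that differed beyond counting error. sult2st1 had 0.179, and sult1st7 and sult1st8 were listed at 0. sult1st4 thus ranked 11 of 12 in embryos and 4 in liver, and sult1st1 ranked 2 and 8. RPKM counts shared reads, and the top of the liver order turned on them. On unique exon reads per kilobase of exon, a setting chosen after seeing the data, sult3st1 came first in liver at 445, with 792 such reads, and sult2st2 next at 356, with 308 of its 490 exon reads unique. sult2st2 kept the highest level in embryos on that measure, at 468. Lower in the embryo order, sult3st1 then lay above sult1st2 beyond counting error (1.44-fold, 1.14 to 1.83). sult3st2 and sult2st3 no longer differed beyond it (1.14-fold, 0.829 to 1.56), whereas sult2st3 and sult1st3 now did (1.81-fold, 1.08 to 3.21).

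**Figure D4:**
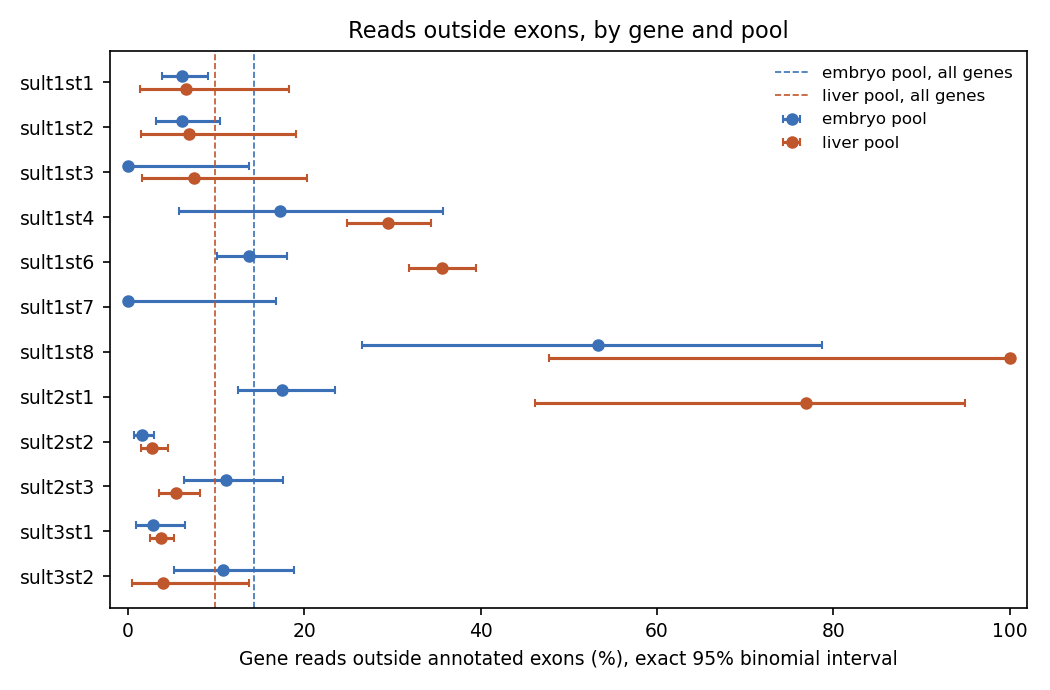
Percent of gene reads outside annotated exons for the 12 genes with exons, embryo pool in blue and liver pool in orange, with exact 95% binomial intervals and dashed lines for all genes of each pool. sult1st6 and sult1st4 have liver shares of 35.6% and 29.5%, above the 9.87% of all liver reads in genes. sult1st7 has no liver read, and sult1st8 and sult2st1 have 5 and 13.

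The rest of the sulfation pathway was described with 4 gene lists. Of their 68 measured members 0 were called higher in liver and 21 in embryos (30.9%, the same as over all genes). Under TMM scaling 4 were called higher in liver (5.88% beside 8.06% of all genes) and 11 in embryos (16.2% beside 15.8%). The list on making, carrying and recycling PAPS had 11 measured members, with 0 liver calls and 2 embryo calls (18.2% beside 30.9% of all genes) and a log2 ratio of -1.30 at the median (0.05 under TMM scaling). Its 3 most abundant genes were lower in liver by library totals and turned above 1 under TMM scaling. The PAPS synthase gene papss2a (zgc:153748) had 1144 embryo reads and 835 liver reads, a ratio of 0.640 (0.584 to 0.700), or 1.63 under TMM scaling. Its paralog papss2b (papss2) had 544 and 260 reads, a ratio of 0.419 (0.360 to 0.486), or 1.07. bpnt1, which breaks down the by-product of sulfonation, had 336 and 294 reads, a ratio of 0.767 (0.653 to 0.899), or 1.96. The called genes, named after their values were seen, encode sulfate transporters. slc13a4 (zgc:162495) had 299 embryo reads and 1 liver read, 341-fold higher in embryos (60.8 to 13522), and slc26a1 had 173 and 11 reads, 17.9-fold higher (9.79 to 36.6). slc26a1 was not called under TMM scaling.

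The list on oxidation of sulfur amino acids to sulfate had the highest median of the 4 lists, 0.75. None of its 7 measured members was called by library totals, beside 3.35% of all genes called higher in liver and 30.9% in embryos. Under TMM scaling 3 were called higher in liver (42.9% beside 8.06% of all genes) and 0 in embryos (beside 15.8%). The 3 were mpst, suox and csad, of which suox and csad are named after their values were seen. The sulfurtransferase gene mpst (zgc:162544) had 284 embryo reads and 1074 liver reads, a ratio of 3.31 (2.90 to 3.79). Sulfite oxidase, suox, which makes sulfate from sulfite, had 180 and 639 reads, a ratio of 3.11 (2.63 to 3.69). csad, a cysteine sulfinate decarboxylase gene of taurine synthesis, had 178 and 536 reads, a ratio of 2.64 (2.22 to 3.14). The aspartate aminotransferase gene got2a had 1748 and 2993 reads, and its paralog got1 had 3649 and 2599, a ratio of 0.624 (0.593 to 0.656) that turned to 1.59 under TMM scaling.

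The membrane-bound sulfotransferases of the Golgi act on glycans, lipids and protein tyrosines and had the lowest median of the 4 lists, -2.31 (-0.95 under TMM scaling). Of 41 features 37 were measured, with 0 liver calls and 15 embryo calls (40.5% beside 30.9% of all genes), or 7 under TMM scaling (18.9% beside 15.8%). The most abundant, the protein tyrosine sulfotransferase gene tpst1, had 577 embryo reads and 851 liver reads, a ratio of 1.29 (1.16 to 1.44). The heparan sulfate enzyme genes ndst1b (LOC570459) and hs6st1a had ratios of 0.348 (0.289 to 0.416) and 0.392 (0.319 to 0.478), which were 0.887 and 0.999 under TMM scaling. Cytosolic and Golgi enzymes thus had medians of -0.36 and -2.31, and no test of that difference was made.

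Sulfatases remove sulfate groups. Of 13 measured genes 4 were called higher in embryos (30.8%, near the 30.9% of all genes) and 0 in liver. Under TMM scaling 3 were called higher in embryos (23.1% beside 15.8%) and 1 in liver (7.69% beside 8.06%). The log2 median was -0.35, which turned above 0 under TMM scaling. The 3 most abundant encode extracellular heparan sulfate sulfatases, and all were called higher in embryos. sulf2b (si:dkeyp-84g9.1) had 2783 embryo reads and 543 liver reads, 5.85-fold higher in embryos (5.33 to 6.42), and was not called under TMM scaling. sulf2a (sulf2) had 507 and 8 reads, 72.3-fold higher (36.4 to 168), and sulf1 had 445 and 20 reads, 25.4-fold higher (16.2 to 42.0).

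**Figure D5:**
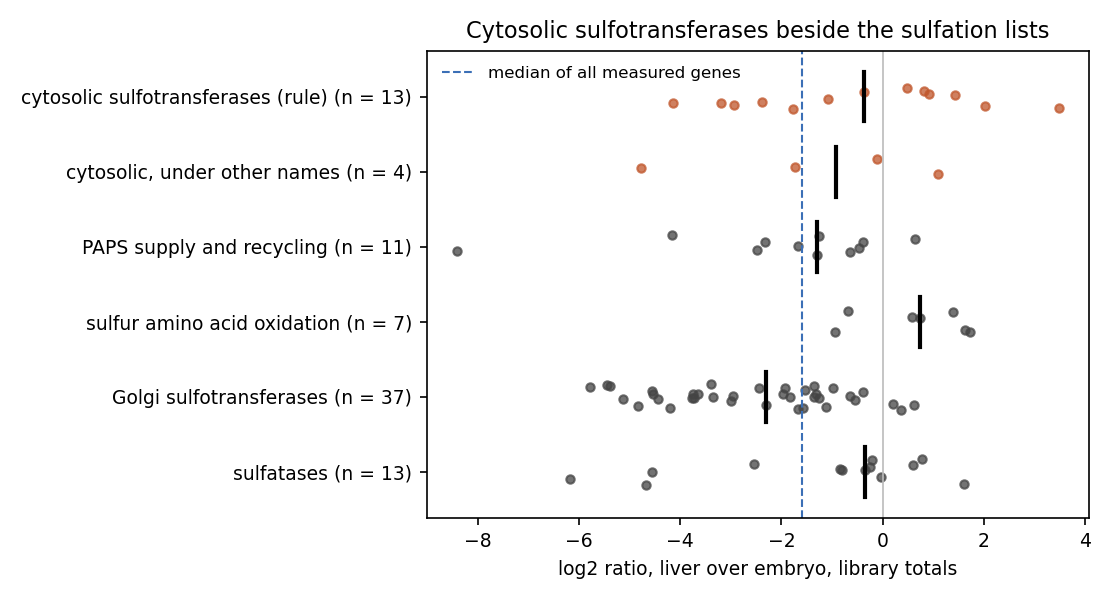
log2 ratio of liver over embryo CPM by library totals for the 13 cytosolic sulfotransferase genes and the 4 under other names (both orange) and the measured members of 4 sulfation lists (grey). Black bars are medians, counts of 0 are set at 3, and the dashed line is the median of all measured genes, -1.60. The 13 genes lie on both sides of 0, and the Golgi list has the lowest median, -2.31.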

How the data were processed

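RNA was pooled by source before sequencing, per the labels' protocols. The authors deposited whole-number counts of reads per gene, unique (1 position) and total, for gene regions, exons, exon-exon and intron-exon reads, per the file headers. The authors also deposited RPKM, which equalled total exon reads scaled by exon length and by total gene reads to within 0.0878 reads. No aligner, annotation or genome build is named in the labels or headers, and coordinates are therefore left out.

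Total gene reads were the main counts, scaled to library totals. Intervals were Clopper-Pearson (SciPy 1.17.1). A count of 0 was set at 3, equal to 0.263 CPM for embryos and 0.230 CPM for liver. TMM factors came from edgeR 4.0.16 and size factors from DESeq2 1.42.0, with no model fitted. Intervals cover counting error only and treat reads as independent. Reads that are PCR copies are not independent, so where such copies occur the intervals are too narrow. Names were matched through the RefSeq table of assembly GRCz12tu for 18978 features, among them 12 of the 13 members (not sult1st8). Every member is named, and the 3 most abundant genes of each list. The members and lists were chosen with earlier results of these data known. Alternatives were other scalings, read sets, count minimums and a 2-fold threshold.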

Additional observations from a re-analysis of the deposited data

How the results depend on the processing

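Counts of calls moved with the library scaling and the fold threshold. Of the 13 genes, 3 had liver calls and 0 embryo calls with TMM factors, 4 and 0 with size factors, 3 and 4 at a 2-fold threshold, and 2 and 3 without the 10 most abundant genes of either pool in the totals. For the 4 sulfation lists the calls were 4 and 11 with TMM factors, 4 and 10 with size factors, and 4 and 36 at 2-fold. In each of these settings the lists' embryo share lay near that of all genes and their liver share below it, by few genes each time. The difference was not tested. Over all measured genes the calls were 728 and 6730 by library totals (3.35% and 30.9%), and 1754 and 3427 with TMM factors (8.06% and 15.8%). Size factors gave 1781 and 3362 (8.19% and 15.5%), and the 2-fold threshold 1404 and 11392 (6.46% and 52.4%). Liver calls were 9.76% of all calls by library totals, 33.9% with TMM factors and 34.6% with size factors.

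The ratio of the summed 13 genes, 1.23, was 3.14 with TMM factors, 3.21 with size factors, 1.48 without the most abundant genes in the totals, 1.40 on unique gene reads, 1.06 on total exon reads and 1.06 (0.990 to 1.14) without sult2st2 and sult3st1. With the 4 genes under other names, an alternative chosen after seeing the data, it was 1.23. Of the 13 single ratios, 11 left their interval by library totals under TMM factors and 11 under size factors, 3 without the most abundant genes in the totals and 0 on unique gene reads. Of 12 ratios, 3 left it on total exon reads, 3 on unique exon reads, 3 on RPKM and 4 on exon-exon reads, the last chosen after seeing the data. No called gene changed direction. Under TMM and size factors none could, since these multiply all ratios by 2.55 or 2.61, less than the 4-fold call threshold. The ratios of the uncalled sult2st2 and sult3st2 did cross 1 under both. The sult3st2 interval then included 1, at 0.835 to 1.71 under TMM factors and 0.853 to 1.75 under size factors. An exon ratio of sult1st5 could not be computed, since it has no exon reads. No paired analysis was possible because each source had 1 library, and no replicate could be left out for the same reason. Depth limits sult1st3, sult1st7 and sult1st8, with at most 40 reads in either pool.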
